A study of Homo sapiens with 6 samples.

Results

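Transcripts of 31 peroxisome genes were followed in HepG2 cells, an established human liver cancer line, after a hairpin RNA was delivered against CHROME, a long noncoding RNA. The genes were taken by symbol from a list of 13 peroxins, the proteins that build the peroxisome, and 18 peroxisomal enzymes and membrane proteins. All 31 were among the 23368 distinct genes of the deposited table, and 28 of them were among the 14598 genes that passed the filter on low counts and were tested. In the shCHROME group (replicates a, b and c), HepG2 cells had been transduced with a pLKO lentivirus carrying a short hairpin against the CHROME variants. In the EV group (replicates a, b and c), the same vector carried a non-targeting hairpin, and both groups were described as stable expression in HepG2, so the control cells had also been through infection. Virus for both groups was packaged in HEK293T, an embryonic kidney line. Total RNA was taken up in TRIzol and made into paired-end TruSeq libraries. The labels do not say whether the cells were 1 clone or a pool, nor whether each library of a group was grown as its own culture. The p-values therefore cover the spread between libraries, which may be technical. CHROME itself was not analysed here.

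Peroxisomes are single-membrane organelles that shorten very long chain and branched fatty acids, finish the side chain of bile acids, begin the synthesis of ether lipids and break down hydrogen peroxide. They are abundant in hepatocytes. Their enzymes are made in the cytosol and carried in by receptors that recognise short targeting signals, then released at a docking complex in the membrane, and the receptors are pulled out again for reuse. Several of the enzyme genes are known targets of PPARA, a nuclear receptor for fatty acids that acts with RXRA. CHROME is known in the literature as a primate long noncoding RNA of cholesterol balance that binds miR-27b, miR-33a, miR-33b and miR-128, and CROT is among the literature targets of miR-33.

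The mature forms of these microRNAs are shown because CROT, one of the genes followed, is a known target of the miR-33 pair. They are from RefSeq (GRCh38.p14), 5′ to 3′, with the seed (bases 2 to 8) in capitals, and miR-33a and miR-33b share 1 seed.
hsa-miR-33a-5p: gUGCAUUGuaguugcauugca
hsa-miR-33b-5p: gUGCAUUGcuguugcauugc
hsa-miR-27b-3p: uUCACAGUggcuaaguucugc
hsa-miR-128-3p: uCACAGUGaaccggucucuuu

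The reverse complement of the miR-33 seed, CAATGCA, was searched in the longest 3′ untranslated region of each gene in GENCODE release 29. It occurred in 3 of 27 regions of peroxisome genes (11.1%), those of CROT, EHHADH and PEX26, and in 9.31% of 12107 regions of tested genes. The sites of CROT, a carnitine transferase, and EHHADH, an enzyme of fatty acid shortening, are printed as transcript sequence with the match in capitals. Positions count from the first base of the region.
CROT, position 216: ctctgatgcagcagCAATGCAa
CROT, position 292: tctacaaactttaaCAATGCAa
EHHADH, position 209: ttatcagataaattCAATGCAt

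The match for miR-27b, ACTGTGA, occurred in 1 of the 27 regions (3.70%, ACAA1) and in 17.7% of all regions. The match for miR-128, CACTGTG, shares most of its letters. It occurred in 8 of the 27 (29.6%) and in 21.7% of all regions. The regions differed in length, with medians of 1151 bases for the peroxisome genes and 1356 for all. A match is a description of letters, not a measured site.

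The libraries held between 29477352 and 33911426 recovered reads in shCHROME and between 29188213 and 35429420 in EV. Values are the authors' normalized counts, and fold changes are limma estimates on log2(value + 1), shCHROME over EV, called at an adjusted p under 0.05 over all tested genes. Of the 9 hepatocyte and HepG2 markers, all were tested, none was at 0, 6 fell and 0 rose (FGB was higher at an unadjusted p under 0.05, and in 0 of 16 alternatives after adjustment), and their summed level ran between 1131960 and 1328170 in shCHROME and between 1413010 and 1533840 in EV. Beside the calls of these and the other marker lists, 6.87% of all tested genes fell and 3.64% rose. The call of ALB was lost in 4 of 16 alternatives, among them with no filter (limma adjusted p = 0.141) and without EV replicate a (0.0676) or EV replicate c (0.0731). Those of SERPINA1 and TF were lost without shCHROME replicate c (0.0501 and 0.0573) or EV replicate c (0.0521 and 0.0598). Of 9 markers of HEK293T cells, 4 were tested and 0 were called (PAX8 was lower at an unadjusted p under 0.05, and none was called in any of the 16 alternatives), with sums between 2240.4 and 2405 in shCHROME and between 2154 and 2279 in EV; NEFM and NEFL were at 0 in each library. Cholangiocyte markers gave 1 rise among 3 tested, that of KRT19 (log2 fold change 0.63, limma adjusted p = 0.0016), which held in all 16 alternatives. Their sums ran between 7621 and 7982 in shCHROME and between 6991 and 8251 in EV, and none of the 4 was at 0. Blood, endothelial and stellate markers gave 1 rise (LYZ) and 1 fall (PDGFRB) among 7 tested of 10. Their sums ran between 8259 and 9459.8 in shCHROME and between 7771 and 8025 in EV. Most of these sums was LYZ, with means of 5887 in shCHROME and 4779 in EV. None of the 10 was at 0 in all 6 libraries, but PTPRC and DES each had only 2 reads in shCHROME and 1 in EV. The rise of LYZ was lost without shCHROME replicate a (limma adjusted p = 0.0596), shCHROME replicate c (0.0613) or EV replicate c (0.0534). That fall of PDGFRB (log2 fold change -0.98, limma adjusted p = 2.6e-04) held in all 16 alternatives. The part of these markers in the results below was not tested. In such bulk samples, fewer cells of a type and less RNA per cell cannot be told apart.

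Of the 28 tested peroxisome genes, 2 fell, none rose (0 of 28) and 26 stayed uncalled. HSD17B4, a beta-oxidation enzyme, fell by 14.8%, and CAT, which encodes catalase, fell by 18.3%. The share of members lower was 7.14%, beside a background of 6.87% of all tested genes lower, and the share higher was 0%, beside a background of 3.64%. These shares are near the background, so the counts are no result about peroxisome genes as a group. The median log2 fold change was -0.02 over the 28 genes and 0.01 over all tested genes; with scaling by library totals the medians were 0.03 and 0.06, and without shCHROME replicate a that of the members was 0.01. Groups did not overlap, with shCHROME lower, for 5 members (background 15.0%), and with shCHROME higher for 3 (background 13.0%). At an unadjusted p under 0.05 there were 10 of 28 members, 7 lower (background 13.5%) and 3 higher (background 10.7%), and neither edgeR nor DESeq2 called a member higher. Without EV replicate b 0 members were lower, and without shCHROME replicate a, EV replicate a or EV replicate c 1 was. Scaling by library totals gave 0 members lower and 1 higher (PEX2), and over all genes it gave 936 higher and 702 lower, against 532 and 1003 as reported.

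**Figure D1:**
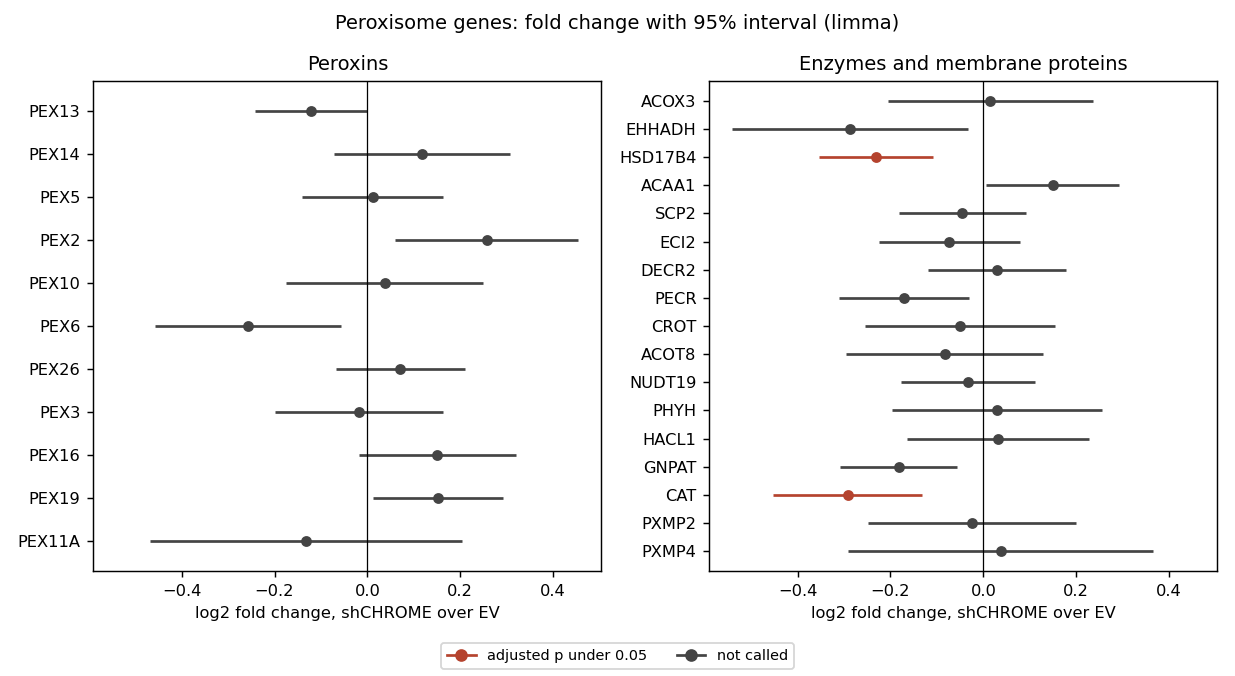
The points are log2 fold changes (shCHROME over EV, x axis) of the 28 tested peroxisome genes, peroxins on the left and enzymes and membrane proteins on the right; bars are 95% intervals from limma. Only HSD17B4 (-0.23) and CAT (-0.29) are marked as called, and the estimates lie between -0.29 and 0.26.

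Fold changes of the members were small. The plot of fold changes with their intervals spans -0.29 for CAT to 0.26 for PEX2, and the half-width of the 95% interval ran from 0.12 for PEX13 to 0.34 for PEX11A. For 18 of the 26 uncalled members the interval reached the size of the change of HSD17B4 in one direction, so a missed call does not show that a gene was unchanged.

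HSD17B4 encodes the bifunctional enzyme that carries out the middle steps of shortening very long chain and branched fatty acids and bile acid precursors. It had 6209, 6291 and 6751 normalized counts in shCHROME replicates a, b and c, against 7094, 7746 and 7772 in EV replicates a, b and c. Every shCHROME library was below every EV library. The means were 6417 ± 292 in shCHROME and 7538 ± 384 in EV (SD, n = 3 each), with a log2 fold change of -0.23 (95% interval -0.35 to -0.11; limma adjusted p = 0.0154). Per kilobase of the longest protein-coding transcript in GENCODE release 29 it had the highest level of the members with a length, 2227 ± 101 in shCHROME and 2616 ± 133 in EV. The call was lost without EV replicate b (adjusted p = 0.0616), without EV replicate c (0.0821) and with scaling by library totals (0.0502), and held in the other 13 of 16 alternatives, down to 0.00423 with DESeq2.

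CAT, the enzyme that splits the hydrogen peroxide made by peroxisomal oxidases, had 1425, 1527 and 1746 normalized counts in shCHROME replicates a, b and c, against 1925.5, 2005.5 and 1808 in EV replicates a, b and c. The groups did not overlap, although shCHROME replicate c came close to EV replicate c. Mean values were 1566 ± 164 in shCHROME and 1913 ± 99.2 in EV (SD, n = 3 each), with a log2 fold change of -0.29 (95% interval -0.45 to -0.13; limma adjusted p = 0.0193). The call was lost without shCHROME replicate a (adjusted p = 0.0602), shCHROME replicate b (0.0551), EV replicate a (0.0633) or EV replicate b (0.0768), and with library totals (0.0506). It held in the other 11 alternatives, down to 0.00894 with DESeq2. In the authors' deposited table both genes were called too, with adjusted p of 0.0217 for HSD17B4 and 0.0251 for CAT, and no other member was. The authors' mean level, 6441 for HSD17B4 and 1657 for CAT, is not the mean of the library values given here. Their fit is therefore not shown to rest on the same values.

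**Figure D2:**
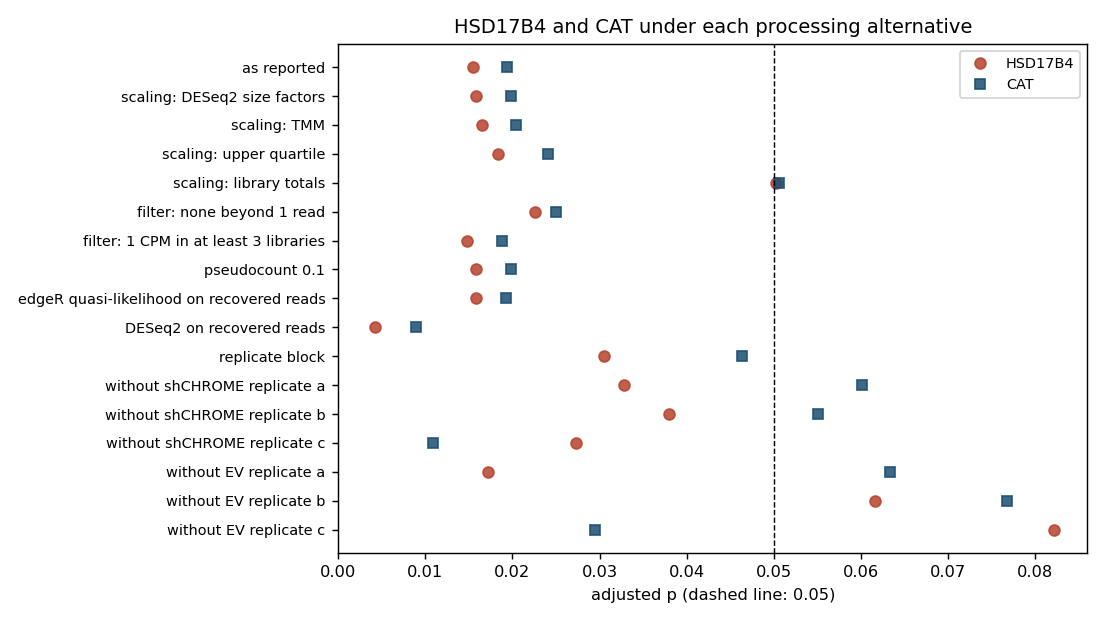
Adjusted p (x axis) of HSD17B4 (circles) and CAT (squares) under the reported fit and each of the 16 alternatives (y axis); the dashed line is the threshold of 0.05. HSD17B4 lies above the line in 3 alternatives, up to 0.0821, and CAT in 5, up to 0.0768.

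In the plot of adjusted p by alternative, most of the points past the threshold are fits with 1 library left out. With edgeR's quasi-likelihood test on the recovered reads the adjusted p was 0.0158 for HSD17B4 and 0.0192 for CAT. Both genes were lower in shCHROME under each of the 16 alternatives, with log2 fold changes between -0.27 and -0.18 for HSD17B4 and between -0.37 and -0.23 for CAT.

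Promoter sequences of HSD17B4 and CAT are shown because these were the called members. They are RefSeq windows on GRCh38.p14 from 250 bases before to 50 after the start, plus strand, 5′ to 3′. Capitals mark CCAAT and GGGCGG on either strand (ATTGG and CCGCCC are their reverse complements).
HSD17B4, chr5:119452247-119452546: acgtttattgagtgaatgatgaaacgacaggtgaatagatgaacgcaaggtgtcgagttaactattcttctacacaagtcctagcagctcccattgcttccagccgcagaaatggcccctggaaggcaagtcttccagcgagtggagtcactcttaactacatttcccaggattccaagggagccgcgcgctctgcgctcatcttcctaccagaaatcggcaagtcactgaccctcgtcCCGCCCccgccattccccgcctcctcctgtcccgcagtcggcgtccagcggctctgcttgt
CAT, chr11:34438684-34438983: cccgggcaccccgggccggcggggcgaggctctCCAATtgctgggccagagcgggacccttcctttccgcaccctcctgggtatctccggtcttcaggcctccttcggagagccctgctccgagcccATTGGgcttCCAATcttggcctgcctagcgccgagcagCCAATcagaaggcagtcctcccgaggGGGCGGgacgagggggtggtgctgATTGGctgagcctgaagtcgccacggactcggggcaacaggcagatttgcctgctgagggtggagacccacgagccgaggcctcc

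The CAT window held 5 copies of CCAAT over both strands and 1 of GGGCGG, with a GC content of 68.0%. The HSD17B4 window held 0 copies of CCAAT and 1 of GGGCGG, at 55.3% GC. The median GC content of all promoters of this length was 58.7%. CCAAT was found in 34.6% of 35116 RefSeq promoters of this length, and in 13 of 35 promoters of the 26 peroxisome genes in the table (37.1%). GGGCGG was found in 45.0% of all promoters and 25 of the 35 (71.4%). All promoters here include those of genes that were not tested. Some genes have more than 1 window, and those of PEX19 overlap, so a site can count again. The difference between these shares was not tested. A direct repeat of AGGTCA with 1 base between the copies, the textbook element of PPAR and RXR, was searched on both strands. It was in 0 of the 35 windows and in 0.0228% of all, and with AGGNCA for each copy in 0 of the 35 and 0.310% of all. Those letters were not in these windows, and nothing follows from that about the receptors. ACAA1, EHHADH, PEX14, DECR2 and PEX2 had no promoter entry, so these 5 members were not searched.

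Other members grouped here under beta-oxidation did not pass the test, PECR among them although it is a reductase. EHHADH, the inducible bifunctional enzyme of straight-chain fatty acids, had 329, 453 and 427 normalized counts in shCHROME replicates a, b and c, against 460.5, 451 and 558 in EV replicates a, b and c. The groups overlapped, since shCHROME replicate b lay above EV replicate b. The means were 403 ± 65.5 in shCHROME and 489.6 ± 59.1 in EV (SD, n = 3 each), with a log2 fold change of -0.29 (95% interval -0.54 to -0.03; limma adjusted p = 0.148). PECR, a reductase of trans-2-enoyl-CoA, had 1785, 1972 and 2036 normalized counts in shCHROME replicates a, b and c, against 2098, 2196 and 2216 in EV replicates a, b and c. Its groups did not overlap, but the log2 fold change of -0.17 (95% interval -0.31 to -0.03) had a limma adjusted p of 0.117. ACAA1, the thiolase of the last step, had a log2 fold change of 0.15 (0.01 to 0.29; limma adjusted p = 0.185). About 21.2% of its exon bases overlap other annotated genes, DLEC1 on the opposite strand the most, and no source used here says whether counting used strand.

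CROT, which hands shortened acyl groups to carnitine for export to mitochondria, had 397, 426 and 469.8 normalized counts in shCHROME replicates a, b and c, against 435, 468 and 434 in EV replicates a, b and c. The highest library of all was a shCHROME one, and the groups overlapped. Its means were 431 ± 36.7 in shCHROME and 446 ± 19.4 in EV (SD, n = 3 each), with a log2 fold change of -0.05 (95% interval -0.26 to 0.15; limma adjusted p = 0.811). The difference was within the spread between replicates in this gene, whose miR-33 matches are printed above. PEX26, with a like number of matches in an unusually long annotated region of 17321 bases, had a log2 fold change of 0.07 (-0.07 to 0.21).

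The remaining genes grouped under beta-oxidation lay closer to 0. Log2 fold changes were 0.02 for ACOX3, an oxidase of branched acyl-CoA, 0.03 for DECR2, a reductase for unsaturated chains, and -0.07 for ECI2, an isomerase of double bonds. They were -0.05 for SCP2, a thiolase and sterol carrier, and -0.08 for ACOT8, a thioesterase. The limma adjusted p ran from 0.594 for ECI2 to 0.957 for ACOX3. Per kilobase of transcript, ACAA1 (1859 ± 163 in shCHROME and 1673 ± 86.6 in EV), ECI2 (1074 ± 98.6 in shCHROME and 1128 ± 38.6 in EV) and PECR (1042 ± 70.3 in shCHROME and 1171 ± 34.0 in EV) followed HSD17B4 in level. In ECI2, SCP2 and ACOT8, between 20.7% and 35.3% of exon bases overlap other genes.

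Alpha-oxidation and ether lipid synthesis gave no call with limma. PHYH, which starts the breakdown of phytanic acid, and HACL1, the lyase that follows, each had a log2 fold change of 0.03 (95% intervals -0.20 to 0.25 and -0.16 to 0.23). GNPAT, which takes the first step of ether lipid synthesis, had 2039, 2058 and 2052 normalized counts in shCHROME replicates a, b and c, against 2379, 2331 and 2270.2 in EV replicates a, b and c. The groups did not overlap, and the SD was smaller in shCHROME, with means of 2049.7 ± 9.87 in shCHROME and 2327 ± 54.7 in EV (SD, n = 3 each). The log2 fold change was -0.18 (95% interval -0.31 to -0.06; limma adjusted p = 0.0596). DESeq2 called it lower (adjusted p = 0.0411), which made 3 members lower with that tool beside a background of 7.72% of the genes it tested, and the adjusted p over all alternatives ran between 0.0411 and 0.202. FAR1, which makes fatty alcohols for ether lipids, had between 2.13 and 13.1 normalized counts in shCHROME libraries and between 5.57 and 14.6 in EV libraries and was below the filter. Such a low value is no evidence that FAR1 is silent, for the reason given with PEX7 below.

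The other enzyme and the membrane proteins were near 0. NUDT19, a hydrolase of coenzyme A, had a log2 fold change of -0.03, and PXMP2 and PXMP4, membrane proteins of which PXMP2 forms a channel, had -0.03 and 0.04 (limma adjusted p between 0.830 and 0.925 for these genes). In PXMP2, 29.1% of exon bases overlap AC135586.2 on the same strand. Over the 17 tested enzymes and membrane proteins together, 2 fell and 0 rose (11.8% lower beside 6.87% of all tested genes, and 0% higher beside 3.64%). Their median log2 fold change was -0.05, and 0.00 with library totals. At an unadjusted p under 0.05 there were 5 of 17 lower and 1 higher, beside 13.5% and 10.7% of all tested genes. Groups did not overlap for 4 of 17, each lower in shCHROME, beside 15.0% of all tested genes lower and 13.0% higher.

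**Figure D3:**
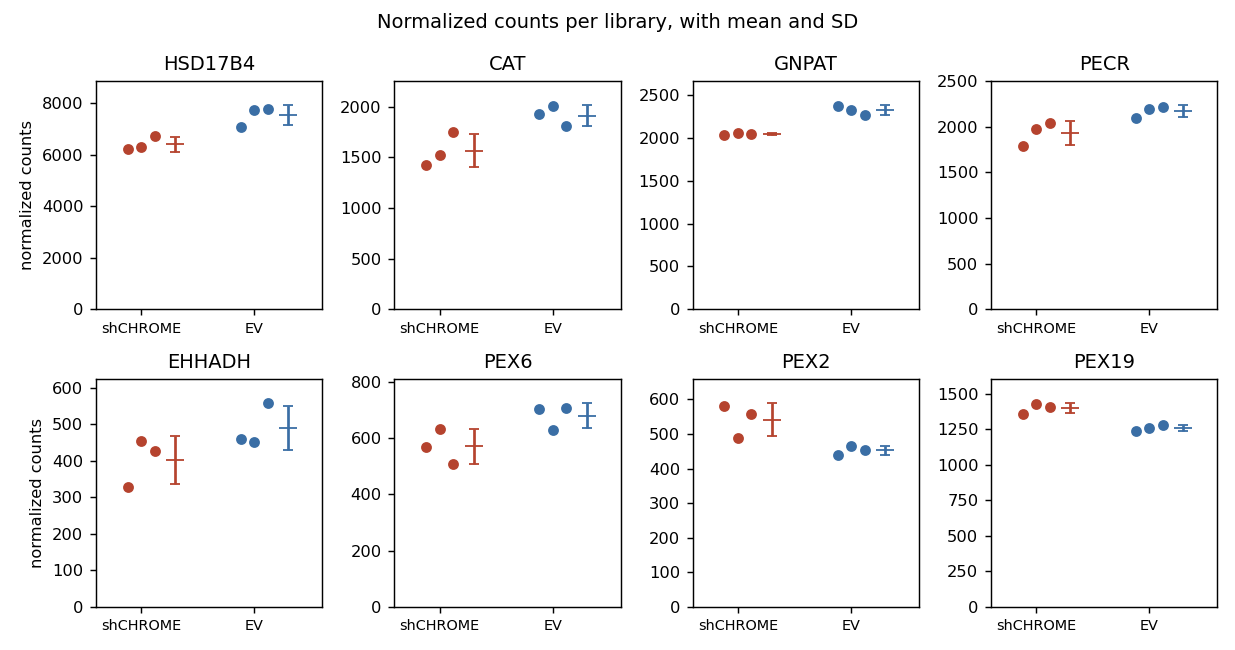
Normalized counts (y axis, from 0) of 8 peroxisome genes in the 3 shCHROME and the 3 EV libraries, replicates a to c from left to right; bars are the mean and SD of each group. HSD17B4, CAT, GNPAT and PECR are lower in every shCHROME library than in any EV library, PEX2 and PEX19 are higher in every shCHROME library, and EHHADH and PEX6 overlap.

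Among the peroxins 0 of 11 tested genes were called by limma, edgeR or DESeq2. With limma 6.87% of all tested genes were lower and 3.64% higher. At an unadjusted p under 0.05 limma gave 4 of 11, PEX13 and PEX6 lower and PEX2 and PEX19 higher, beside 13.5% of all tested genes lower and 10.7% higher. The plot of normalized counts in single libraries shows 3 of these beside the enzymes, and PEX2, PEX6, PEX13, PEX16, PEX19, GNPAT and PECR were picked for values by library after their values were seen. The median log2 fold change of the peroxins was 0.04, 0.09 with library totals and 0.11 without shCHROME replicate c. Groups did not overlap for 1 of 11 peroxins lower in shCHROME and for 3 higher, beside 15.0% and 13.0% of all tested genes.

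PEX13 and PEX14 form the docking site where loaded receptors meet the membrane. PEX13 had 3757, 3482 and 3745 normalized counts in shCHROME replicates a, b and c, against 3947, 4003 and 3996 in EV replicates a, b and c. The groups did not overlap, at a log2 fold change of -0.12 (95% interval -0.24 to -0.0019; limma adjusted p = 0.199), while PEX14 had 0.12 (-0.07 to 0.31; adjusted p = 0.467). Leaving out PEX26, whose annotated transcript of 18445 bases is unusually long, PEX13 was the highest of the tested peroxins per kilobase, at 819 ± 34.7 in shCHROME and 891 ± 6.81 in EV. PEX5, the receptor of enzymes that end in the common C-terminal signal, had 1436, 1329.6 and 1276 normalized counts in shCHROME replicates a, b and c, against 1414, 1324 and 1272 in EV replicates a, b and c. The groups covered almost the same range, with a log2 fold change of 0.01 (95% interval -0.14 to 0.16; limma adjusted p = 0.955). PEX7, the receptor of the N-terminal signal, had at most 1.06 normalized counts in any shCHROME library and at most 1.99 in any EV library and was below the filter. In this table even IRS2 and APOC2, both commonly found in liver cells, are listed at 0 throughout, so such a value is no evidence that PEX7 is silent. The same holds for PEX11G and FAR1.

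PEX2 and PEX10 are ring proteins of the ubiquitin ligase that marks PEX5 for reuse. PEX2 had 580.0, 489 and 557 normalized counts in shCHROME replicates a, b and c, against 438, 466 and 453 in EV replicates a, b and c. Every shCHROME library was above every EV library, with a log2 fold change of 0.26 (95% interval 0.06 to 0.45; limma adjusted p = 0.0939). It passed the threshold without shCHROME replicate b (adjusted p = 0.0413) and with library totals (0.0417), and missed it in the other alternatives, where it reached 0.248. PEX10 had a log2 fold change of 0.04 (-0.18 to 0.25), and 39.1% of its exon bases overlap RER1 on the opposite strand.

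PEX6, an ATPase that pulls the marked receptor out of the membrane, had 569, 634 and 508 normalized counts in shCHROME replicates a, b and c, against 705, 629 and 706 in EV replicates a, b and c. The groups overlapped at shCHROME replicate b and EV replicate b. The log2 fold change was -0.26 (95% interval -0.46 to -0.06; limma adjusted p = 0.0964), and it passed the threshold only without shCHROME replicate b (adjusted p = 0.0404, against up to 0.359 in the other alternatives). PEX26, which anchors PEX6 at the membrane, had a log2 fold change of 0.07.

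Membrane proteins are inserted by PEX19, their chaperone, PEX3, its docking partner, and PEX16. PEX19 had 1359.95, 1427 and 1409 normalized counts in shCHROME replicates a, b and c, against 1236, 1259 and 1281 in EV replicates a, b and c. About 16.3% of its exon bases overlap AL139011.2, an annotated protein-coding gene on the same strand. PEX16 had 839.7, 783 and 754 normalized counts in shCHROME replicates a, b and c, against 688, 745 and 706 in EV replicates a, b and c. Neither gene overlapped between groups, each being higher in shCHROME, and each had a log2 fold change of 0.15 (limma adjusted p = 0.166 for PEX19 and 0.267 for PEX16). PEX3 had -0.02 (95% interval -0.20 to 0.16). PEX11A, which elongates peroxisomes before division, had -0.13 with a wide interval of -0.47 to 0.20, and its level of 54.8 ± 11.6 per kilobase in shCHROME and 59.2 ± 4.07 in EV was low. PEX11G, of the same family, had 0 in each shCHROME library and between 0.914 and 1.99 normalized counts in EV libraries. It was below the filter. Without the filter, PEX7, PEX11G and FAR1 had limma adjusted p of 0.902, 0.155 and 0.867.

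**Figure D4:**
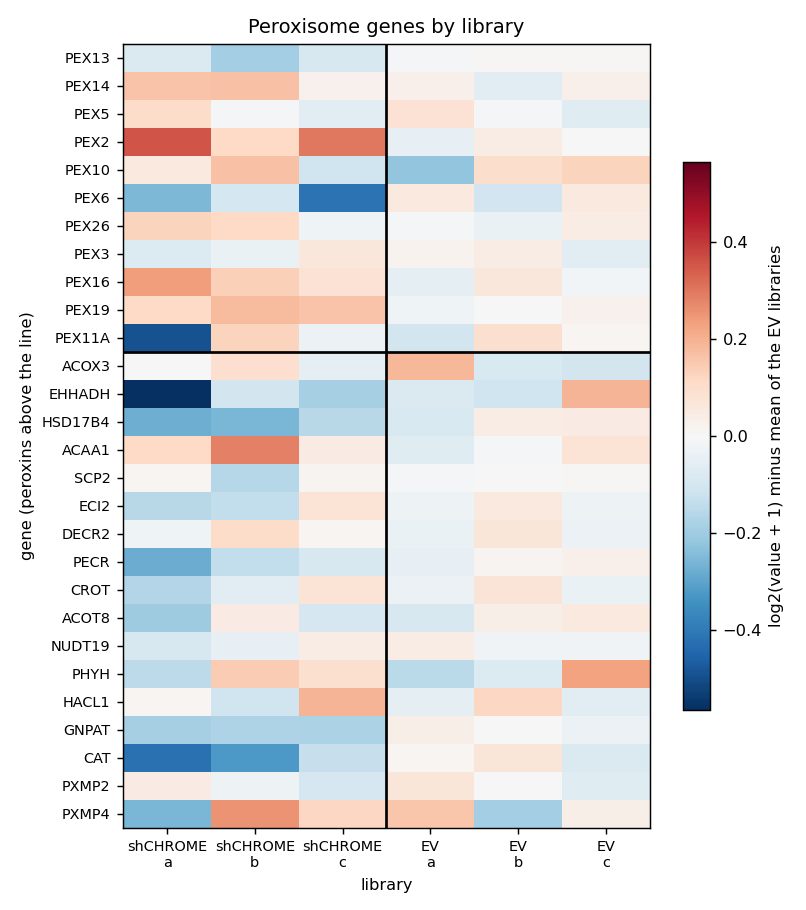
Rows are the 28 tested peroxisome genes and columns the 6 libraries; colour is log2(value + 1) minus the mean of the EV libraries, red above it and blue below it. Rows of CAT, HSD17B4, GNPAT and PECR are blue in each shCHROME library, PEX2, PEX16 and PEX19 are red there, and the darkest cell of EHHADH and of PEX11A is shCHROME replicate a.

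The map of values by library shows how members varied within a group. In EHHADH, PEX11A and PXMP4 shCHROME replicate a was the lowest of the 6 libraries, and in PEX6 it was shCHROME replicate c. Of the 28 genes, 20 had overlapping groups.

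Other peroxisome genes outside the list were read from the same fit. Of 20 further genes of assembly, division and transport, 19 were tested, of which 2 fell, 0 rose and 17 stayed uncalled (10.5% lower beside 6.87% of all tested genes, and 0% higher beside 3.64%). The median log2 fold change was 0.02. TMEM135, a membrane protein of peroxisomes and mitochondria, fell 1.41-fold, to 2311 ± 117 normalized counts in shCHROME against 3271 ± 199 in EV (SD, n = 3 each; limma adjusted p = 6.1e-05), a call that held in all 16 alternatives. Without shCHROME replicate c, EV replicate a or EV replicate c, 1 gene of the list was lower in place of 2. The same count came with library totals and with the replicate block. As to genes higher, edgeR and DESeq2 each called 1. At an unadjusted p under 0.05 the list held 3 genes higher and 3 lower of 19, beside 10.7% of all tested genes higher and 13.5% lower.

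Of 30 further peroxisomal enzymes, 25 were tested, of which 3 fell, 1 rose and 21 stayed uncalled (12% lower beside 6.87% of all tested genes, and 4% higher beside 3.64%). The median log2 fold change was -0.07. PIPOX, an oxidase of pipecolate and sarcosine, fell 1.22-fold to 3419 ± 215 normalized counts in shCHROME against 4156 ± 153 in EV (SD, n = 3 each), and HSDL2, a dehydrogenase-like protein, fell 1.2-fold to 3074 ± 124 normalized counts in shCHROME against 3694 ± 96.4 in EV. Both calls (limma adjusted p = 0.00611 and 0.00653) held in all 16 alternatives. SLC27A2, a very long chain acyl-CoA synthetase, fell 1.24-fold (limma adjusted p = 0.0488). The adjusted p over all 16 alternatives ran between 0.0143 and 0.170, and the call of SLC27A2 was lost in 11 of them. These 11 included upper quartile scaling, library totals, no filter, edgeR and the replicate block. Among the 11 were the fits without shCHROME replicate a (0.170), shCHROME replicate b (0.104), EV replicate a (0.0731), EV replicate b (0.132) and EV replicate c (0.121). BAAT, which joins bile acids to glycine or taurine, rose 1.18-fold (limma adjusted p = 0.0443). It lost the call in 6 alternatives, among them the fits without shCHROME replicate a (0.118), shCHROME replicate c (0.154), EV replicate a (0.217) or EV replicate c (0.111), against a lowest adjusted p of 0.0162.

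**Figure D5:**
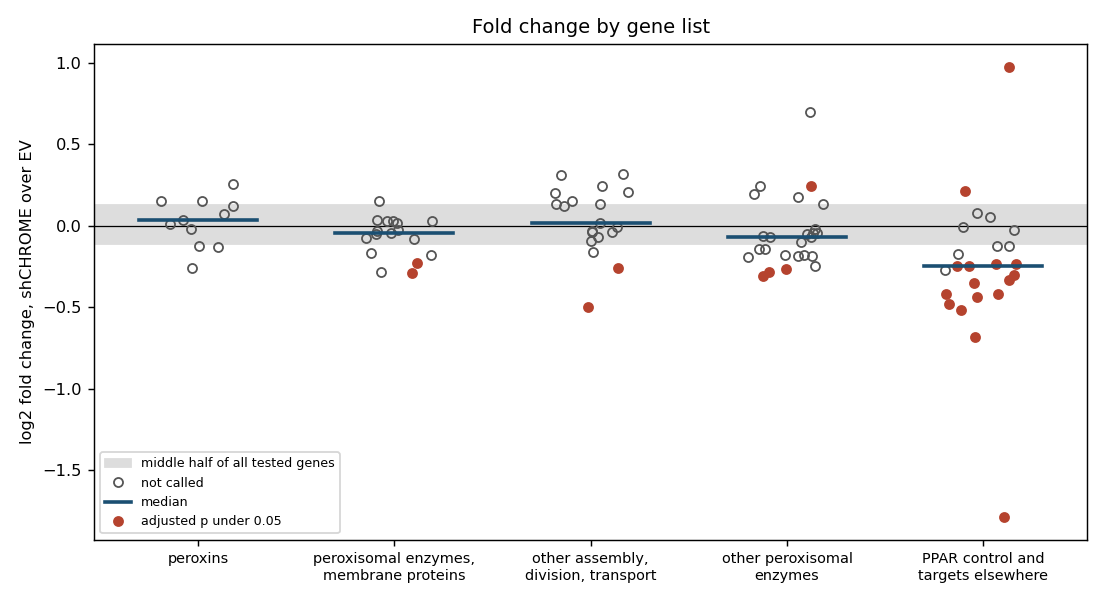
Log2 fold change (shCHROME over EV, y axis) of each tested gene in 5 lists, filled where the adjusted p is under 0.05; lines are list medians and the grey band holds the middle 50% of all tested genes. The median is 0.04 for peroxins, -0.05 for peroxisomal enzymes and membrane proteins, 0.02 for other assembly genes, -0.07 for other peroxisomal enzymes and -0.24 for the PPAR list. With library totals the median of the peroxisomal enzymes and membrane proteins is 0.00. The lists were chosen with earlier results of these data known.

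The PPAR list held receptors, coactivators and known PPARA targets outside the peroxisome, chosen to stand beside the peroxisomal genes. It was chosen with earlier results of these data known, so its shares are not an unbiased comparison with other genes. In the plot of fold change by list it lies lowest. Of its 26 genes 24 were tested, of which 14 fell, 2 rose and 8 stayed uncalled. The share lower was 58.3% beside 6.87% of all tested genes, and the share higher was 8.33% beside 3.64%. For the peroxisome genes the share lower was 7.14%, and the difference between the lists was not tested. PPARA fell 1.23-fold to 5689 ± 268 normalized counts in shCHROME against 7016 ± 309 in EV, and RXRA, its partner, fell 1.34-fold to 4243 ± 244 in shCHROME against 5660.1 ± 179 in EV (SD, n = 3 each; limma adjusted p = 0.00234 and 1.6e-04). Both held in all 16 alternatives. PPARGC1A, a coactivator of oxidation genes, fell 1.18-fold (limma adjusted p = 0.0290), and its alternatives ran between 0.0155 and 0.159. It lost the call without shCHROME replicate b (adjusted p = 0.0833), EV replicate a (0.0769) or EV replicate c (0.159) and with library totals (0.0750).

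Among the targets, ANGPTL4, an inhibitor of lipoprotein lipase, fell 1.43-fold, FABP1, the liver fatty acid binding protein, 1.39-fold, and PLIN2, a coat protein of lipid droplets, 1.26-fold. The carnitine carrier SLC25A20 fell 1.34-fold, the trifunctional protein subunits HADHA and HADHB 1.28-fold and 1.18-fold, ACADVL 1.19-fold, CPT1A 1.18-fold and TXNIP 1.35-fold. VNN1, a pantetheinase, fell 1.6-fold, though its groups overlapped. Calls were lost without shCHROME replicate c (limma adjusted p = 0.0597), EV replicate a (0.0735) or EV replicate c (0.0794) for CPT1A, and without EV replicate c for HADHB (0.0618). That of VNN1 was lost in 7 alternatives, among them those without shCHROME replicate b (0.162), shCHROME replicate c (0.111), EV replicate b (0.166) or EV replicate c (0.0976). The lowest adjusted p of the alternatives was 0.00273 for CPT1A, 0.00174 for HADHB and 0.00441 for VNN1. PPARGC1B, a second coactivator of this family, rose 1.97-fold to 58.5 ± 12.9 normalized counts in shCHROME against 29.3 ± 7.39 in EV (SD, n = 3 each), and ACSL1, an acyl-CoA synthetase, rose 1.16-fold. The rise of PPARGC1B was lost without shCHROME replicate c (0.129), EV replicate a (0.0707) or EV replicate b (0.0640), and that of ACSL1 without shCHROME replicate c (0.0974) or any EV replicate (between 0.0611 and 0.0735). Their lowest values were 0.0161 and 0.00461. The fall of 6 of 9 hepatocyte markers, 3 of whose calls were lost in some alternatives as given above, stands beside these falls, and its part in them was not tested.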

How the data were processed

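RNA from 3 shCHROME and 3 EV libraries went through STAR 2.5 and featureCounts 1.5.2 on hg19 and then DESeq2 (version given as 3.4), per the submitters' processing notes. The annotation and strand setting are not given in the sources used here. The authors deposited a signal per gene and library, read counts divided by a size factor, with their own log2 fold change and p-value. Of 24656 rows, 1288 repeats were dropped; 28 symbols stored as dates were restored. Values were whole multiples of 1 read, within 0.01 reads for 100% of values, and those reads were recovered (a step of 0.995698 in EV replicate c).

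The test was limma 3.58.1 with a trend on log2(value + 1), which understates changes of low genes, with group as the only term, filterByExpr of edgeR 4.0.16 and Benjamini-Hochberg adjustment over 14598 genes. It was also run on simulated data, where the pass condition covered only changes far larger than those of the members. That run therefore does not show how often changes as small as theirs are called. Replicates differed by more than sampling noise (chi-square over its degrees of freedom, 5.72 to 17.0). Alternatives (16) covered scaling, filter, a pseudocount of 0.1, edgeR, DESeq2 1.42.0, a replicate block, and each library left out in turn. Called members, CROT, PEX5, CAT, EHHADH and uncalled members changed at least 1.2-fold were to be given by library, and of the other lists each called gene. Transcript lengths, exon overlaps and untranslated regions were matched by gene identifier to GENCODE release 29 (DECR2 had no match). Some genes that this rule names are not reported here. Members and lists were chosen with earlier results of these data known.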

Additional observations from a re-analysis of the deposited data

How the results depend on the processing

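Over 16 alternatives the 28 members gave 408 values with the same direction and side of the threshold, 28 with the other sign, 8 calls lost and 4 gained; the called genes of the other lists gave 308 and 44 lost. The cause was not tested, except that leaving out a library leaves fewer samples. With library totals the medians of all genes moved to 0.06, and 936 genes were higher and 702 lower, against 532 and 1003. That scaling gave 1 member higher (PEX2, a peroxin, so 1 peroxin higher) and 0 members, and so 0 enzymes, lower; PEX3 turned to 0.031, SCP2 to 0.0044, NUDT19 to 0.017 and PXMP2 to 0.024. It gave 3 higher and 1 lower among other assembly genes, where upper quartile scaling, a filter of 1 CPM, edgeR and DESeq2 each gave 1 higher. With no filter 0 other peroxisomal enzymes were higher.

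With the replicate block 349 genes were higher and 764 lower, HSD17B4 (0.0305) and CAT (0.0464) held, the marker ALB was not called (0.0572), 1 other assembly gene was lower and 0 other peroxisomal enzymes were higher. The letters are not shown to pair the libraries, since same-lettered libraries had correlations of -0.05, -0.09 and 0.04 for a, b and c, and not every library correlated best with its own letter.

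Leaving out 1 library gave 245 (without shCHROME replicate c) to 528 genes higher and 599 to 1051 lower. Members ranged between 0 and 1 higher and between 0 (without EV replicate b) and 2 lower, peroxins between 0 and 1 in either direction, and enzymes between 0 and 2 lower. Other assembly genes ranged between 0 and 2 higher and 1 and 2 lower, other peroxisomal enzymes between 0 and 1 higher, and the PPAR list between 0 and 2 higher. Uncalled members whose sign turned ranged between -0.036 and 0.052 for PEX5, -0.074 and 0.11 for PEX10, -0.059 and 0.012 for PEX3, -0.26 and 0.047 for PEX11A, -0.037 and 0.11 for ACOX3, -0.075 and 0.013 for SCP2, -0.0065 and 0.064 for DECR2, -0.11 and 0.0064 for CROT, -0.047 and 0.14 for PHYH, -0.050 and 0.10 for HACL1, -0.062 and 0.0093 for PXMP2 and -0.071 and 0.19 for PXMP4. PEX7, PEX11G and FAR1 were below the filter on low counts.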
